A study of Mus musculus with 32 samples.

Results

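Complement is a cascade of plasma and tissue proteins that tags targets for removal and attracts inflammatory cells. The classical pathway begins when C1q, with its proteases C1r and C1s, binds a surface and leads to cleavage of C4 and C2. The alternative pathway runs through factor B, and both meet at C3, the central component. The liver makes most plasma C3 and C4, tissue macrophages are the best known source of C1q, and injured kidney tubules are known to make C3. The account below covers 9 complement component genes taken by name from 53700 genes in the deposited table of raw read counts: *C1qa*, *C1qb* and *C1qc* (the 3 chains of C1q), *C1ra* (a C1r protease), *C4a* and *C4b* (the paired C4 genes), *C2*, *C3* and *Cfb* (factor B). All 9 passed the filter on low counts, as did 13961 genes in all.

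The counts came from snap-frozen kidney tissue of 32 male mice of one C57BL/6 line, taken from kidneys that had been bisected. In this line a tamoxifen-activated Cre under the kidney-specific cadherin promoter of the tubules can remove exons 2 to 11 of *Pkd1*. The 8 wildtype mice carried the same line, received no tamoxifen and were 109 days old. The 12 PKD mice received tamoxifen (150 mg/kg by gavage) on postnatal days 18 and 19 and were 95 days old. The 12 PKD + Salsalate mice were treated likewise and also ate chow with salsalate, a prodrug of salicylate, at 2.5 g/kg from day 81 for 2 weeks. *Pkd1* loss in the PKD groups therefore cannot be told apart from tamoxifen or from an age difference of 2 weeks. PKD and PKD + Salsalate were matched for both. Per the paper, the 12 mice of each PKD group were picked from a larger number for similarly mild disease, by kidney weight relative to body weight. Levels in both PKD groups, and the comparison between them, hold for mice selected in this way. Unsorted tissue was read, so more cells of a type and more RNA per cell cannot be told apart in any value below.

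Libraries held between 11193136 and 109807664 counts on genes. In CPM (counts per 1000000 of a library size scaled by TMM factors), 1 CPM stood for at least 10.6 counts in every library. Kidney tubule markers were high in every group (for example *Umod*, the uromodulin gene, at 2159 CPM ± 680 in wildtype, SD, n = 8). *Pkd1*, counted over the whole gene and so no measure of the deleted exons, averaged 68.7 CPM ± 10.9 over wildtype kidneys. Its mean was 92.1 CPM ± 15.1 over the PKD group and 92.7 CPM ± 15.1 over the treated one. Between 5 wildtype libraries whose names end in R and the other 3, some members differed, and values against each set are given where a call depended on it. No PKD library has such a name, and the labels do not say what the letter means. The share of alignments on genes was 73.62% to 76.36% in the 5 libraries named with R and 80.89% to 83.09% in the other 3. It was 74.15% to 82.87% in PKD and 78.64% to 82.70% in PKD + Salsalate. The part of this share in the differences between the sets was not tested.

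One library stood apart. PKD replicate 10 held 1930 CPM of *Alb* (albumin), against a median of 2.67 CPM in the other 11 PKD kidneys. All 19 of 19 hepatocyte markers were at their highest of 32 kidneys there, and their summed level was 5580 CPM, against 183 to 275 CPM in the other PKD kidneys, 156 to 346 CPM in wildtype and 159 to 286 CPM in PKD + Salsalate. Liver makes complement, and the part of this signal in the values below was not tested, so the fold changes of the 9 genes are given with and without that kidney.

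Some complement members were high in that kidney and others were not. *C3* was at 381 CPM in PKD replicate 10, which was 4.82 times the median of the other 11 PKD kidneys (79.1 CPM). *C4b* was at 118 CPM, 3.19 times the median of 37.1 CPM, and *C4a* at 5.99 CPM, 2.35 times the median of 2.55 CPM. *C3* and *C4b* were both higher there than in any of the other 31 kidneys. The C1q genes sat below their PKD medians, with *C1qa* at 48.7 CPM against 57.6 CPM, *C1qb* at 68.1 against 70.2 CPM and *C1qc* at 38.3 against 43.3 CPM. *C2* was low as well (5.76 CPM against 7.78 CPM), while *Cfb* and *C1ra* were at 1.38 and 1.13 times their medians. Of 47 other complement genes, 23 were highest of all 32 kidneys in this library, including 15 of the 20 that were too low to be tested. Among these were *Vtn* (vitronectin) at 156 CPM against 0.368 CPM, *Hc* (the C5 gene) at 37.1 against 0.200 CPM and *C9* (the pore-forming terminal component) at 26.3 against 0.465 CPM. These 3 were picked after their values were seen. The share of all genes at their highest in this library was not counted, so 23 of 47 has no background beside it.

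**Figure D1:**
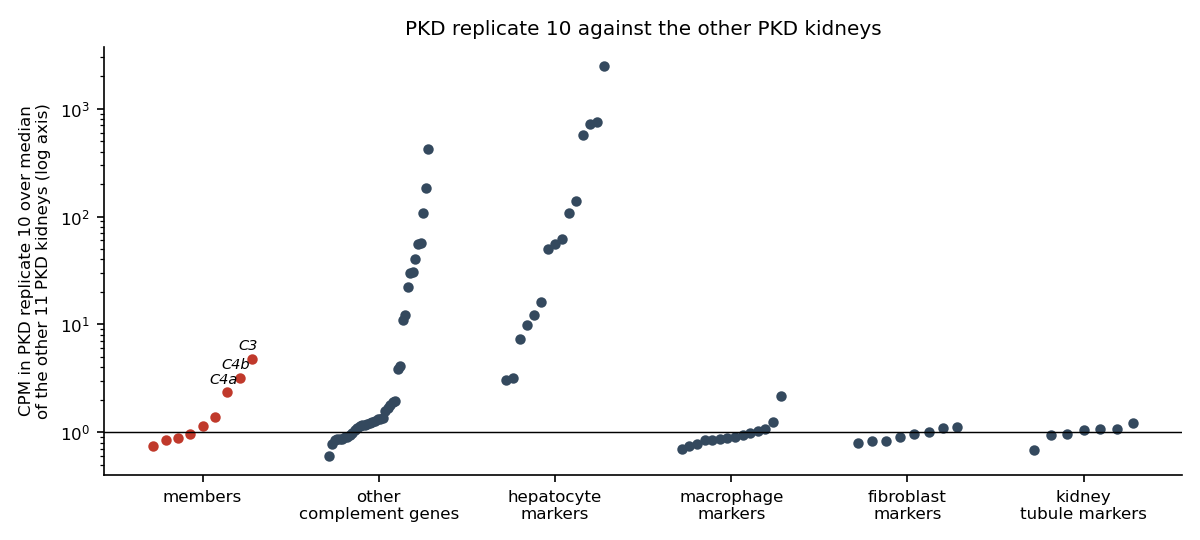
Each point is 1 gene: its CPM in PKD replicate 10 divided by its median CPM in the other 11 PKD kidneys (log axis), for the 9 complement members, the other complement genes and lists of cell type markers, sorted within a list. Genes with a median of 0 are left out. *C3* (4.82), *C4b* (3.19), *C4a* (2.35), *Cfb* (1.38) and *C1ra* (1.13) stand above the line at 1, as do all hepatocyte markers shown.

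The first comparison, PKD against wildtype, asks which complement genes changed in cystic kidneys. Of the 9 genes, 6 rose (*C3*, *C1qa*, *C1qb*, *C1qc*, *C4b* and *C1ra*) and none fell by edgeR's quasi-likelihood test with Benjamini-Hochberg adjustment over 13961 genes, at an adjusted p under 0.05. Over all genes, 24.1% were called higher and 25.0% lower. Without PKD replicate 10 the same 6 were called higher and *C4a* was called lower, where 23.4% and 24.6% of 13948 genes were called. The median log2 fold change of the 9 was 1.23 (1.25 without that kidney), against -0.01 over all genes. In 5 of the 9 (*C3*, the 3 C1q genes and *C4b*) every PKD kidney lay above every wildtype kidney, while 7.28% of all genes had no overlap in either direction.

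The salsalate comparison differed from this. Between PKD + Salsalate and PKD, 1 of the 9 was called, *C4a*, which was lower, with and without PKD replicate 10. Over all genes 0.251% were called higher and 0.329% lower (0.265% and 0.251% without that kidney). Against wildtype, the treated kidneys had the same 6 members called higher, with *C4a* lower, in both fits, of which *C1ra* depended on the wildtype libraries used (values below). There 21.8% of all genes were called higher and 23.2% lower (21.7% and 23.1% without PKD replicate 10), and 5 members did not overlap, against 6.39% of all genes. The 3 comparisons share kidneys, so their values are set side by side and are not independent.

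**Figure D2:**
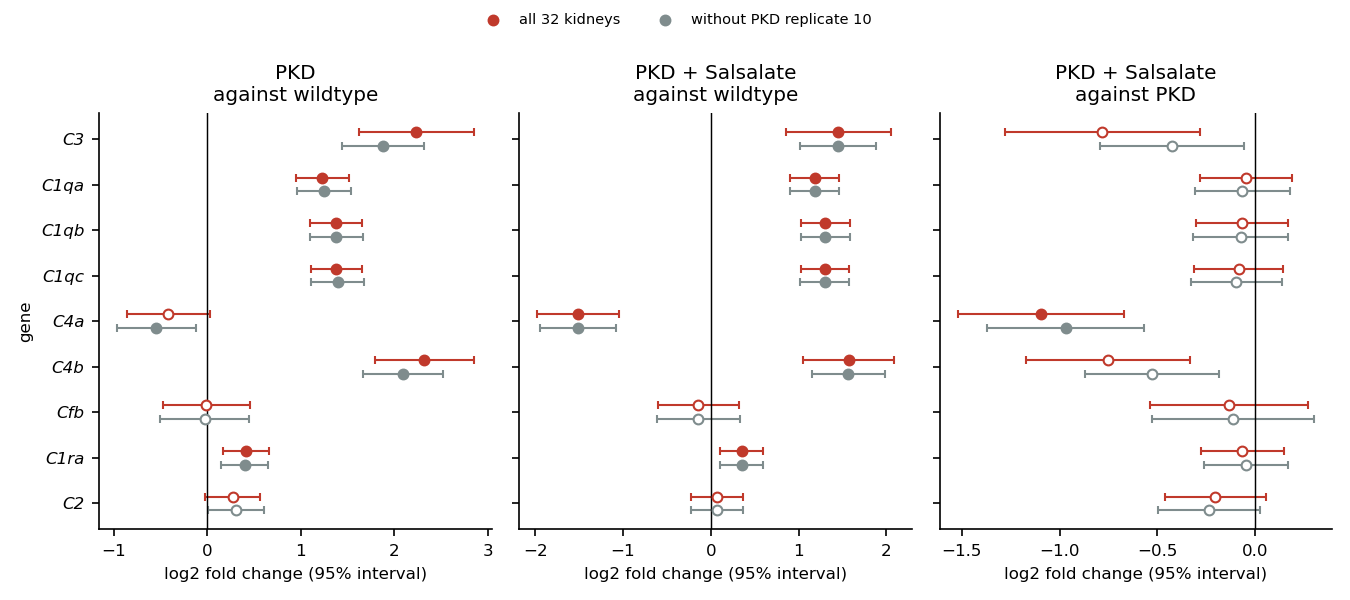
Log2 fold change of each complement gene with its 95% interval in 3 comparisons, for all 32 kidneys and without PKD replicate 10, with filled points for an adjusted p under 0.05. *C3* and *C4b* move towards 0 without that kidney in both comparisons that use PKD kidneys, and the C1q genes hardly move.

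The 3 C1q genes rose by similar amounts. They lie next to each other on the minus strand of chromosome 4 (GRCm39), *C1qb* at 136606009 to 136613511, *C1qc* at 136616466 to 136620376 and *C1qa* at 136623223 to 136626161. *C1qa* had a lowest, median and highest level of 16.6, 24.9 and 35.6 CPM in wildtype, 47.9, 55.7 and 79.4 CPM in PKD and 38.6, 56.6 and 87.2 CPM in PKD + Salsalate. *C1qb* had 18.5, 26.9 and 39.7 CPM in wildtype, 59.4, 69.2 and 95.8 CPM in PKD and 49.2, 67.1 and 99.4 CPM in PKD + Salsalate. *C1qc* had 11.4, 16.3 and 22.2 CPM in wildtype, 32.3, 41.3 and 60.2 CPM in PKD and 30.2, 38.5 and 63.6 CPM in PKD + Salsalate. For all 3 genes the highest wildtype kidney was below the lowest kidney of either PKD group, and the PKD groups overlapped throughout.

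In the same edgeR fit, *C1qa* rose with a log2 fold change of 1.23 ± 0.14 (SE, adjusted p = 1.56e-08), *C1qb* with 1.37 ± 0.14 (adjusted p = 1.61e-09) and *C1qc* with 1.38 ± 0.14 (adjusted p = 9.28e-10). Without PKD replicate 10 the values were 1.25, 1.38 and 1.39. Between PKD + Salsalate and PKD the log2 differences were close to 0: -0.05 for *C1qa* (95% interval -0.28 to 0.19, adjusted p = 0.945), -0.07 for *C1qb* (-0.30 to 0.17, adjusted p = 0.911) and -0.08 for *C1qc* (-0.31 to 0.14, adjusted p = 0.888). Without PKD replicate 10 they were -0.07, -0.07 and -0.10, with none called. These intervals leave room for differences of about 0.3 downward and 0.2 upward on the log2 scale. The genes also varied together from kidney to kidney. Over the 23 PKD and PKD + Salsalate kidneys without PKD replicate 10, each taken as log2 CPM minus its group mean, Pearson's r was 0.96 for *C1qa* with *C1qb*, 0.93 for *C1qa* with *C1qc* and 0.96 for *C1qb* with *C1qc*, given as a description with no test.

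Macrophage markers moved with the C1q genes. Of 14 listed, 13 were tested, and 11 rose and 1 (*Mertk*) fell in PKD against wildtype, with the same counts without PKD replicate 10. Over all genes 24.1% were called higher and 25.0% lower (23.4% and 24.6% without that kidney). *Adgre1* (the F4/80 gene) rose with a log2 fold change of 1.40 ± 0.19 (edgeR, adjusted p = 1.99e-07) and *Csf1r* (the receptor for macrophage growth factor) with 0.44 ± 0.08 (adjusted p = 1.45e-05), and both were called without PKD replicate 10 too (1.43 and 0.44). The summed level of the list ran from 229 to 358 CPM in wildtype, 394 to 526 CPM in PKD and 354 to 594 CPM in PKD + Salsalate, and none of the 13 was called between PKD + Salsalate and PKD. The part of the macrophage markers in the C1q values was not tested. Fibroblast markers also rose, 8 of 8 in PKD against wildtype, with summed levels of 291 to 416 CPM in wildtype, 590 to 921 CPM in PKD and 552 to 1166 CPM in PKD + Salsalate. *Pdgfrb* (a pericyte and fibroblast receptor) rose by 0.73 ± 0.08 (adjusted p = 3.29e-09) and *Dcn* (decorin) by 0.44 ± 0.12 (adjusted p = 0.00236) on the log2 scale (0.74 and 0.44 without PKD replicate 10, both called).

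Set on a per-length scale, *C1qa* stood first of the genes compared. Mean levels in wildtype, in CPM per kilobase of the Ensembl canonical transcript, were 22.7 ± 5.60 for *C1qa*, 10.9 ± 3.11 for *C1qb*, 8.79 ± 1.92 for *C1qc*, 6.94 ± 2.25 for *C1ra* and 4.57 ± 0.85 for *C3* (SD, n = 8). In the 11 PKD kidneys without replicate 10 the order was *C1qa* (53.6 ± 8.37), *C1qb* (28.2 ± 3.88), *C1qc* (23.0 ± 4.28), *C3* (16.8 ± 5.44) and *C1ra* (9.04 ± 1.36). *C3* stood below *C1ra* in wildtype, where their ranges of mean ± SD overlapped, and above it in PKD, where they did not. The ranges of mean ± SD of *C1qb* and *C1qc* overlapped in both groups. Reads were counted over all annotated exons of a gene, which together are longer than the canonical transcript. These lengths are 6246 against 2532 bases for *C1qb*, 2860 against 1852 for *C1qc* and 5183 against 5158 for *C3*. The places of *C1qb* and *C1qc* in the order therefore depend on the length used. The C4 genes, *Cfb* and *C2* are left out of this order because reads they share with other genes cannot be assigned.

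*C1ra* and *C2*, which encode proteases, changed little. *C1ra* (chromosome 6, 124489364 to 124500402, plus strand) had a lowest, median and highest level of 15.6, 17.6 and 32.8 CPM in wildtype, 19.6, 28.0 and 32.9 CPM in PKD and 20.0, 25.5 and 34.9 CPM in PKD + Salsalate. All groups overlapped. It rose in PKD by a log2 fold change of 0.42 ± 0.12 (edgeR, adjusted p = 0.00604), or 0.40 without PKD replicate 10 (adjusted p = 0.00993). The call rested on which wildtype libraries were used: it was 0.72 ± 0.13 with the 3 libraries without R as the reference (adjusted p = 8.40e-05) and 0.25 ± 0.14 with the 5 named with R (adjusted p = 0.117). In PKD + Salsalate against wildtype it was 0.35 ± 0.12 (adjusted p = 0.0208; 0.35 without PKD replicate 10, adjusted p = 0.0214). That call too was lost with the R-named libraries (0.18, adjusted p = 0.258) and held with the other 3 (0.66, adjusted p = 0.000295). The treated kidneys against PKD gave -0.07 ± 0.11 (adjusted p = 0.904), or -0.05 without PKD replicate 10 (adjusted p = 0.946).

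*C2* (chromosome 17, 35081578 to 35117241, minus strand) was not called in any of the 3 comparisons. Its lowest, median and highest levels were 3.18, 6.75 and 9.07 CPM in wildtype, 5.69, 7.78 and 10.7 CPM in PKD and 5.12, 6.96 and 7.99 CPM in PKD + Salsalate. The log2 fold change of PKD against wildtype was 0.27 ± 0.15 (edgeR, adjusted p = 0.136), or 0.30 without PKD replicate 10 (adjusted p = 0.0961). Here too the wildtype sets parted. The value was -0.02 ± 0.14 with the 5 libraries named with R as the reference (adjusted p = 0.932) and 0.84 ± 0.17 with the other 3 (adjusted p = 0.000290). With PKD replicate 10 and wildtype replicate 2, 3 or 4 left out, *C2* was called as well (lowest adjusted p = 0.0449). *C2* in PKD + Salsalate against wildtype gave 0.07 ± 0.15 (adjusted p = 0.742), with -0.22 against the R-named libraries (adjusted p = 0.171) and 0.64 against the other 3, which was called (adjusted p = 0.00439). The treated kidneys against PKD gave -0.20 ± 0.13 (adjusted p = 0.663), or -0.24 without PKD replicate 10 (adjusted p = 0.626).

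The 2 C4 genes parted from each other. They lie on the minus strand of chromosome 17, *C4b* at 34947354 to 34962912 and *C4a* at 35028069 to 35042440 (GRCm39). In mice *C4b* encodes C4 itself, and *C4a* (also known as sex-limited protein) is a close copy. Their canonical transcripts, aligned over 5369 bases, were identical at 96.2% of positions, and 35.2% of the 50-base windows of *C4a* occurred unchanged in *C4b* (16.5% of 100-base windows). Reads within such windows have more than 1 place in the genome, which HTSeq by default leaves uncounted, so both genes were measured from the stretches where they differ. The 60 bases of a single exon with the most differences (13), all coding, are shown because they are the kind of stretch that lets a read be assigned. They are in exon 21 of both transcripts, at chr17:35035062-35035121 for *C4a* and chr17:34954404-34954463 for *C4b* (GRCm39, minus strand). Capitals mark the bases that differ.
C4a: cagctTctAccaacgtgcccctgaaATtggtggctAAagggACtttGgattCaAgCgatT
C4b: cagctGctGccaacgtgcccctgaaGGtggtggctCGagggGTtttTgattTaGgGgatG

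*C4b* rose in PKD. It had a lowest, median and highest level of 5.80, 8.91 and 12.6 CPM in wildtype, 22.8, 38.4 and 118 CPM in PKD (55.8 CPM at most without replicate 10) and 16.1, 22.7 and 49.5 CPM in PKD + Salsalate. Neither PKD group overlapped wildtype. The log2 fold change of PKD against wildtype was 2.32 ± 0.27 (edgeR, adjusted p = 1.49e-08), a 4.99-fold rise, and 2.09 ± 0.22 without PKD replicate 10 (adjusted p = 2.14e-09, 4.27-fold). In PKD + Salsalate against wildtype it was 1.57 ± 0.26 (adjusted p = 1.31e-05), and 1.57 ± 0.21 without PKD replicate 10 (adjusted p = 4.55e-07). Against PKD, the treated kidneys gave -0.75 ± 0.21 (adjusted p = 0.0939), and -0.53 ± 0.17 without PKD replicate 10 (adjusted p = 0.195), neither of which passed. Of 12 treated kidneys, 10 were below the PKD median. Without PKD + Salsalate replicate 11, which had the highest *C4b* of its group, the difference was -0.87 and was called (adjusted p = 0.0241). With both kidneys left out it was -0.64 (adjusted p = 0.0368).

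*C4a* was low throughout. It had a lowest, median and highest level of 2.27, 3.14 and 9.52 CPM in wildtype, 1.55, 2.73 and 5.99 CPM in PKD (3.96 CPM at most without replicate 10) and 0.861, 1.40 and 2.04 CPM in PKD + Salsalate. These levels rest on 24 to 150 counts per kidney in wildtype, 23 to 106 in PKD and 18 to 157 in PKD + Salsalate. All 12 treated kidneys were below the lowest wildtype kidney, and 9 of them below the lowest PKD kidney. In PKD + Salsalate against PKD the log2 fold change was -1.10 ± 0.22 (edgeR, adjusted p = 0.0143), a 2.14-fold lower level, and -0.97 ± 0.21 without PKD replicate 10 (adjusted p = 0.0212). It was called in all 32 fits with 1 kidney left out (adjusted p up to 0.0278) and in all 31 with PKD replicate 10 and 1 further kidney left out (adjusted p up to 0.0415). Against wildtype, PKD + Salsalate gave -1.51 ± 0.24 (adjusted p = 4.18e-06), and -1.51 ± 0.22 without PKD replicate 10 (adjusted p = 1.29e-06).

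Whether *C4a* differed between PKD and wildtype depended on single kidneys. The log2 fold change was -0.42 ± 0.23 with all kidneys (edgeR, adjusted p = 0.129) and -0.54 ± 0.21 without PKD replicate 10 (adjusted p = 0.0358). Wildtype replicate 2, at 9.52 CPM, was above the next wildtype kidney at 4.46 CPM, and without it the value was -0.09 (adjusted p = 0.743), or -0.21 with PKD replicate 10 left out as well (adjusted p = 0.320). With the wildtype libraries named with R as the reference it was -0.59 (adjusted p = 0.0555), or -0.72 without PKD replicate 10, which was called (adjusted p = 0.0133). With the other 3 it was -0.14 (adjusted p = 0.679). Of the 31 fits without PKD replicate 10 and 1 further kidney, 26 called *C4a* lower.

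The balance of the pair shifted between the groups. There were 1.30 to 3.73 counts of *C4b* per count of *C4a* in wildtype (median 2.98), 6.75 to 25.7 in PKD (median 14.05) and 12.1 to 35.5 in PKD + Salsalate (median 17.6). No kidney of either PKD group reached down to the wildtype range. With the counts of both genes added, the log2 fold change was 1.89 ± 0.26 in PKD against wildtype (edgeR, adjusted p = 2.79e-07) and -0.77 ± 0.21 in PKD + Salsalate against PKD (adjusted p = 0.0797). Without PKD replicate 10 these were 1.67 ± 0.21 (adjusted p = 6.61e-08) and -0.55 ± 0.17 (adjusted p = 0.149), so the sum was not called for salsalate in either fit.

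**Figure D3:**
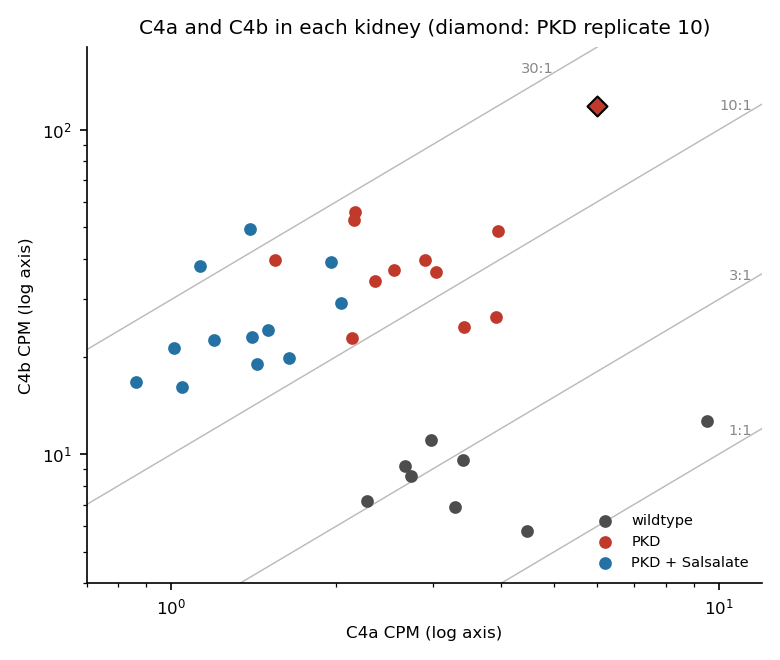
Each point is 1 kidney, with its *C4a* CPM on the horizontal and its *C4b* CPM on the vertical axis (both log), grey lines for constant ratios, and a diamond for PKD replicate 10. The 8 wildtype kidneys lie between the 1:1 line and just above the 3:1 line, and all kidneys of both PKD groups lie above them, with PKD + Salsalate to the left at 0.861 to 2.04 CPM of *C4a*.

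*C3* is cleaved by both convertases and its fragments are the main tags of the system. It lies at 57510964 to 57535155 on the minus strand of chromosome 17 (GRCm39). Its lowest, median and highest levels were 16.7, 23.1 and 31.3 CPM in wildtype, 56.5, 79.8 and 381 CPM in PKD (137 CPM at most without replicate 10) and 30.4, 59.2 and 141 CPM in PKD + Salsalate. All 12 PKD kidneys and 11 of 12 treated kidneys were above the highest wildtype kidney. The log2 fold change of PKD against wildtype was 2.23 ± 0.31 (edgeR, adjusted p = 5.27e-07), a 4.70-fold rise, and 1.88 ± 0.23 (3.67-fold) without PKD replicate 10 (adjusted p = 3.73e-08). The mean in PKD dropped from 111 CPM ± 89.2 (n = 12) to 86.5 ± 28.1 (n = 11) with that kidney left out.

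*C3* in PKD + Salsalate against wildtype gave 1.45 ± 0.30 (edgeR, adjusted p = 0.000235), and 1.45 ± 0.22 without PKD replicate 10 (adjusted p = 2.91e-06). Between the treated kidneys and PKD it was not called. The log2 fold change of PKD + Salsalate against PKD was -0.78 ± 0.25 (edgeR, adjusted p = 0.164) and -0.43 ± 0.19 without PKD replicate 10 (adjusted p = 0.435). In 10 of the treated kidneys *C3* was under the median of PKD, and in 5 it was under the lowest PKD kidney. PKD + Salsalate replicate 11 had the highest *C3* of its group (141 CPM), and without it the difference was -0.94 (adjusted p = 0.0400). With both that kidney and PKD replicate 10 left out it was -0.59 (adjusted p = 0.0615).

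**Figure D4:**
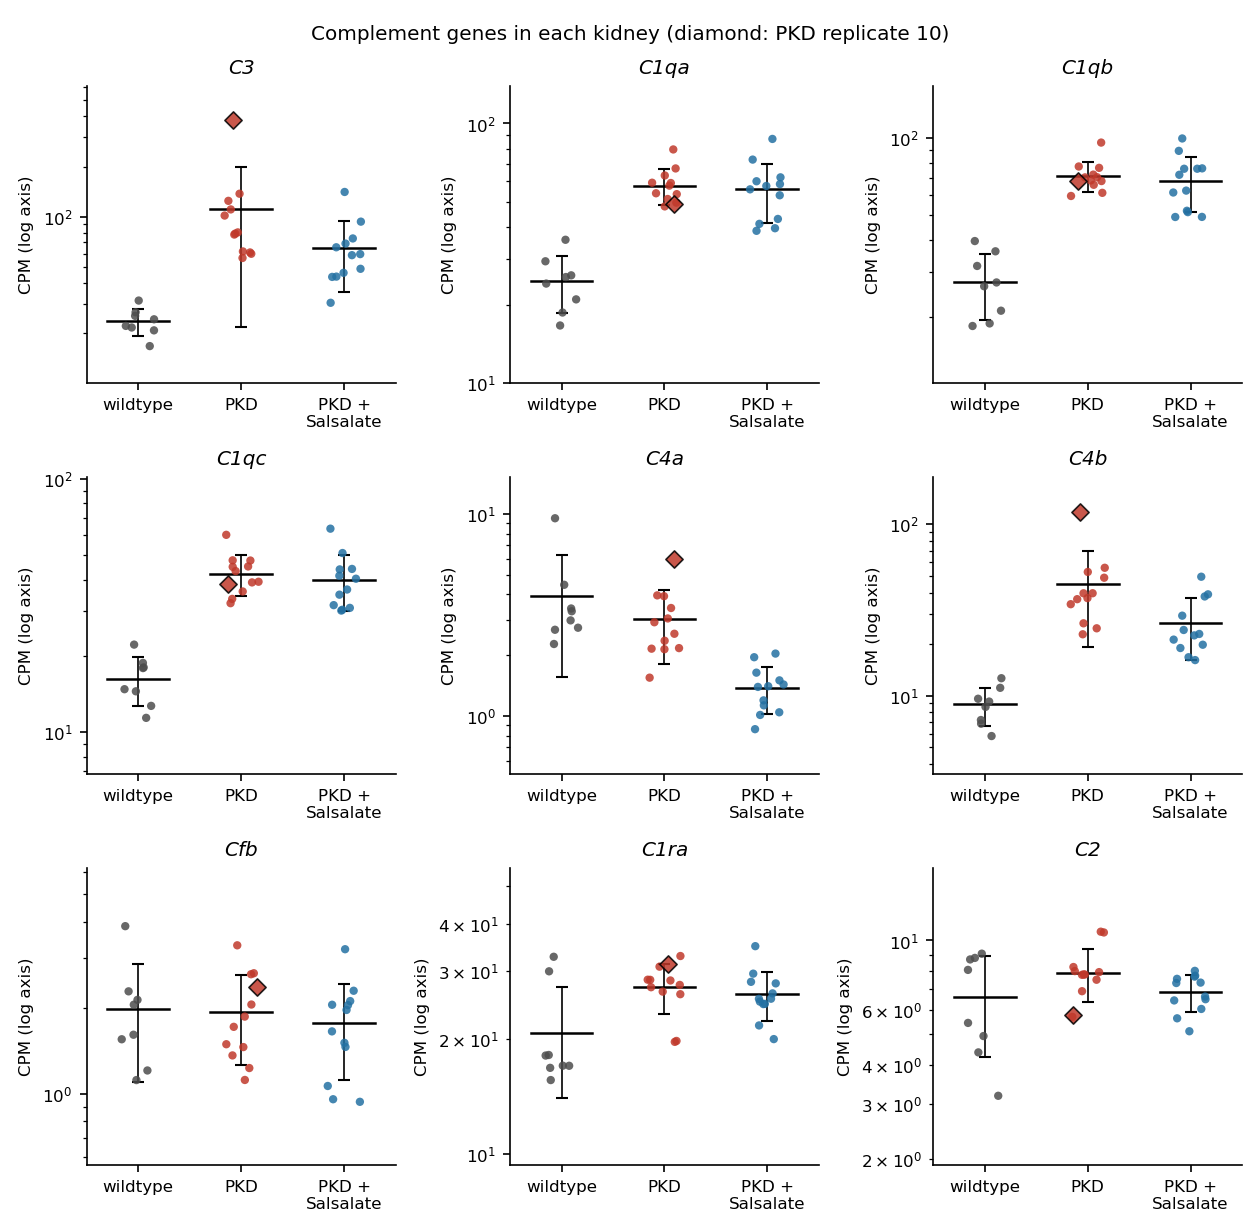
CPM (log axis) of the 9 complement genes in each kidney of the 3 groups, with a line and bar for mean and SD over all kidneys of a group and a diamond for PKD replicate 10. *C3*, *C4b* and the C1q genes are higher in every PKD kidney than in any wildtype kidney, and *C4a* is lowest in PKD + Salsalate.

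*Cfb* was not called in any of the 3 comparisons, and little of the gene could be measured. It lies at 35074852 to 35081559 on the minus strand of chromosome 17 (GRCm39), beside *C2*, and 65.7% of its exonic bases (38.4% of those of *C2*) are also part of *Gm20547*, a gene on the same strand that spans both. *Gm20547* had 0 counts in each of the 32 kidneys, and HTSeq by default leaves reads within shared exons uncounted as ambiguous. *Cfb* had a lowest, median and highest level of 1.12, 1.83 and 3.87 CPM in wildtype, 1.12, 1.79 and 3.32 CPM in PKD and 0.936, 1.81 and 3.21 CPM in PKD + Salsalate, from as few as 12 counts in a kidney. The groups covered nearly the same range. Its log2 fold change was -0.01 ± 0.24 in PKD against wildtype (edgeR, adjusted p = 0.979), with a 95% interval of -0.47 to 0.46, and -0.13 ± 0.21 in PKD + Salsalate against PKD (adjusted p = 0.895). Without PKD replicate 10 they were -0.03 (adjusted p = 0.937) and -0.11 (adjusted p = 0.936). The value against wildtype was 0.42 with the wildtype libraries named with R as the reference (adjusted p = 0.196) and -0.45 with the rest (adjusted p = 0.232).

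The wider complement system was read from 47 further genes. Of these 27 passed the filter, and in PKD against wildtype 14 rose and 4 fell (13 and 4 without PKD replicate 10, where *C1s1* and *Cd59b* were no longer called and *C8a* was called lower). Of all 13961 genes 24.1% were called higher and 25.0% lower, and in lists of 1 to 8 genes a count such as 1 of 3 is near that share. Their median log2 fold change was 0.35 (0.25 without that kidney). *C1s1* (the C1s protease) had 0.35 ± 0.14 (edgeR, adjusted p = 0.0430). Its mean was 49.2 CPM ± 13.6 in the 5 wildtype libraries named with R and 25.5 ± 2.34 in the other 3. The 11 PKD kidneys without replicate 10 had 49.9 ± 6.76 CPM. In the lectin pathway 1 of 3 tested genes rose, *Masp1* (a protease of the mannose-binding lectin complexes), with a log2 fold change of 1.81 ± 0.17 (adjusted p = 1.59e-10) and 1.71 without PKD replicate 10. Neither of the 2 alternative pathway genes tested, *Cfd* and *Cfp*, was called. Among terminal components *C7* rose (0.87 ± 0.18, adjusted p = 0.000214) and *C8g* fell (-0.49 ± 0.11, adjusted p = 0.000747), at 0.88 and -0.55 without PKD replicate 10.

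The calls in this and the next paragraph, apart from *Cd59b*, were also made without PKD replicate 10. Of 5 fluid-phase regulators tested, 4 rose: *Cfi* (factor I, which cleaves C3b and C4b) by 2.78 ± 0.24 (edgeR, adjusted p = 3.41e-11), *Clu* (clusterin) by 0.83 ± 0.16 (adjusted p = 8.83e-05), *Serping1* (C1 inhibitor) by 0.74 ± 0.13 (adjusted p = 2.33e-05) and *Cpn1* by 0.61 ± 0.08 (adjusted p = 4.03e-07), all on the log2 scale. *Cfi* had a mean of 3.17 CPM ± 0.655 in wildtype (n = 8), 20.0 ± 6.43 in the 11 PKD kidneys without replicate 10 and 16.9 ± 5.59 in PKD + Salsalate (n = 12). Of 5 membrane regulators tested, *Cd59a* (an inhibitor of the membrane attack complex) had -0.83 ± 0.15 (adjusted p = 2.70e-05) and *Cd59b* -0.28 ± 0.12 (adjusted p = 0.0469), while *Cr1l* (Crry, a C3 regulator of rodents) had 0.26 ± 0.07 (adjusted p = 0.00163). The wildtype sets parted for *Cd59a*, with a mean of 121.2 CPM ± 7.31 in the 5 libraries named with R and 58.6 ± 7.64 in the other 3. The 11 PKD kidneys without replicate 10 had 55.6 ± 14.2 CPM, near the latter set. *Cr1l* had 35.0 ± 3.96, 42.1 ± 2.58 and 44.6 ± 4.14 CPM in the same order.

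Of 8 receptor genes tested 6 rose and 1 fell. *Itgam* (a chain of complement receptor 3) had a log2 fold change of 2.24 ± 0.22 (edgeR, adjusted p = 3.19e-10) and *C5ar1* (the C5a receptor) 2.06 ± 0.24 (adjusted p = 1.12e-08). *Cr2* (complement receptor 2) had -1.60 ± 0.19 (adjusted p = 2.88e-08). *C3ar1*, the C3a receptor, named here after its values were seen, had 1.47 ± 0.18 (adjusted p = 3.70e-08). Between PKD + Salsalate and PKD 1 of the 27 was called, *Cpn1*, the catalytic chain of the carboxypeptidase that inactivates C3a and C5a, with 0.33 ± 0.07 (adjusted p = 0.0292) and 0.34 ± 0.08 without PKD replicate 10 (adjusted p = 0.0268). Its mean was 62.6 CPM ± 9.16 in wildtype (n = 8), 94.8 ± 12.8 in the 11 PKD kidneys and 120.2 ± 12.7 in PKD + Salsalate (n = 12). The call was lost in 7 of the 32 fits that left out 1 kidney.

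**Figure D5:**
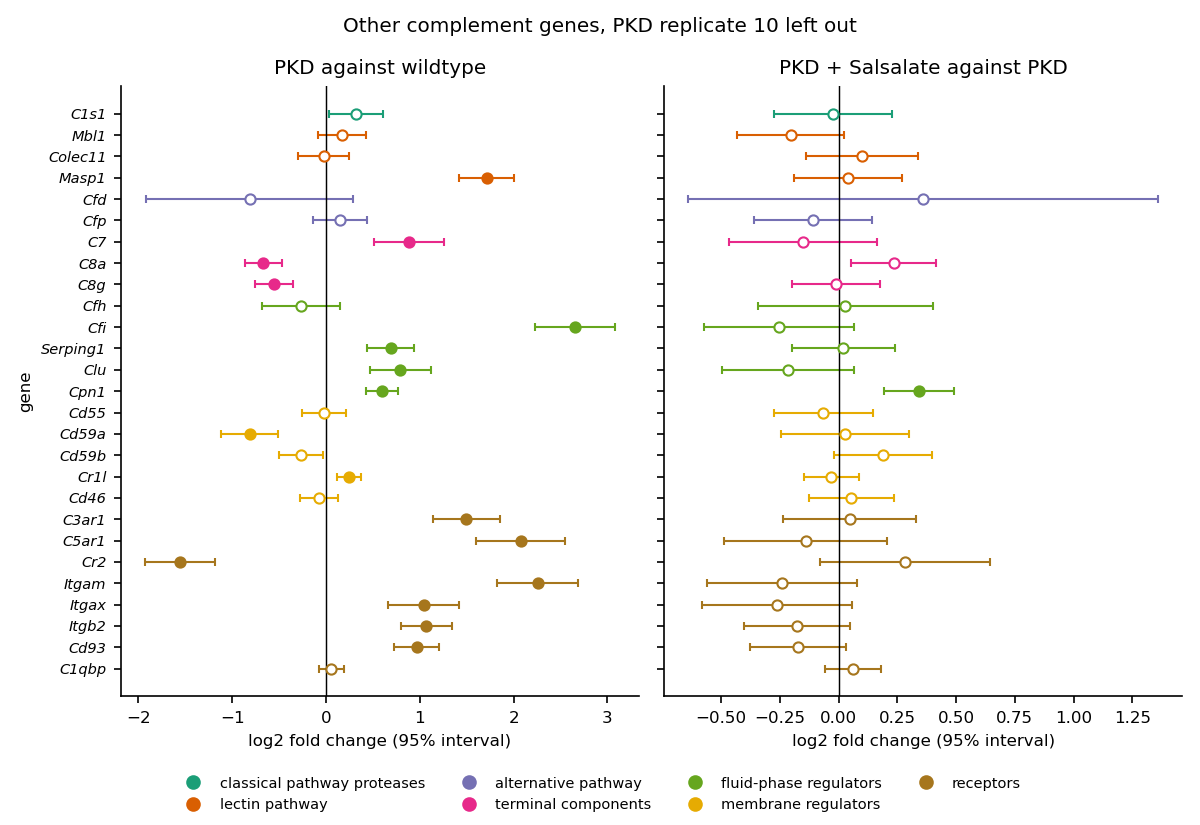
Log2 fold change with its 95% interval of the 27 other complement genes tested, coloured by role, without PKD replicate 10, in PKD against wildtype and PKD + Salsalate against PKD. Filled points had an adjusted p under 0.05, 17 in the first comparison and 1 (*Cpn1*) in the second.

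Genes whose kidney-to-kidney pattern was most like that of 5 members were sought among the tested genes, over the 23 PKD and PKD + Salsalate kidneys without PKD replicate 10, on log2 CPM minus the group mean. These are descriptions of the top 3 of the whole list, with no test. All genes of a kidney share its library depth and tissue composition. Depth ran from 11193136 to 109807664 counts over these kidneys, and its part in the correlations was not tested. For *C3* they were *Vcam1*, an adhesion molecule (Pearson's r 0.92, Spearman's rho 0.91, r 0.88 without the 2 kidneys farthest from the median of *C3*), *Fcrl2* (r 0.92, rho 0.89) and *Gpr153* (r 0.91, rho 0.89). For *C1qa* they were *C1qb* (r 0.96, rho 0.93), *C1qc* (r 0.93, rho 0.90) and *Ccl9* (r 0.92, rho 0.93). For *C4b* they were *Mpeg1* (r 0.89, rho 0.91), *H2-Aa* (r 0.89, rho 0.88) and *Ctss* (r 0.88, rho 0.88). *Mpeg1* and *Ctss* are known macrophage genes and *H2-Aa* is a class II antigen-presentation gene.

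*C1ra* had r of 0.69 with *C3* and 0.74 with *C4b*. For *Cfb* the top genes were *Dolk* (r 0.87, rho 0.84), *Opa1* (r 0.87, rho 0.82) and *Clcc1* (r 0.86, rho 0.84). For *C4a*, which was added after its values were seen, they were *Kif5c* (r 0.66, rho 0.59, r 0.51 without the 2 farthest kidneys), *Slc20a1* (r 0.64, rho 0.66) and *Gm43597* (r 0.62, rho 0.58). *C4a* had r between -0.13 and 0.14 with each of the other 8 members. *C3* had 0.85 with *C4b* and 0.91 with *C1qc*, but 0.17 with *Cfb* and -0.06 with *C2*. Taken within each group, *C4a* with *C4b* had -0.23 in PKD and 0.45 in PKD + Salsalate.

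The promoters of *C3*, *C1qb*, *C1qc* and *C1ra* were in a RefSeq table of 250 bases before to 50 after each start (GRCm38.p6), and those of the other 5 members were not analysed here. Those of *C3* and *C1qc*, whose levels followed each other across kidneys, are shown 5′ to 3′ with motif matches in capitals. *C3* is at chr17:57228087-57228386 and *C1qc* at chr4:136892865-136893164, both minus strand.
C3: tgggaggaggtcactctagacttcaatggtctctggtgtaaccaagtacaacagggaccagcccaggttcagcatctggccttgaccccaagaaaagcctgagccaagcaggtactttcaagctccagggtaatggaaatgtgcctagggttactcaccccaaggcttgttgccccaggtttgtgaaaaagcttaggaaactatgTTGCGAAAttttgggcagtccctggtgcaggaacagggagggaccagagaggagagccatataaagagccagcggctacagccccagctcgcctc
C1qc: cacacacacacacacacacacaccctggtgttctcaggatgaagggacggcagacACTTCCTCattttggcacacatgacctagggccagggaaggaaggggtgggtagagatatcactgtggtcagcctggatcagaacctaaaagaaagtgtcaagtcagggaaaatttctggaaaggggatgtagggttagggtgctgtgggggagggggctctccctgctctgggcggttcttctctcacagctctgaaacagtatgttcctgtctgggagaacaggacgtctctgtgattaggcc

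On both strands, 5 short motif cores were searched. The C/EBP core TTGCNNAA matched once in *C3* and once in *C1ra*, and occurs in 10.8% of 32851 promoters of the same length. The PU.1 core GAGGAAGT matched once in *C1qc* and occurs in 3.2% of promoters. The STAT core TTCNNNGAA matched once in *C1ra* (8.3% of promoters). The interferon response core AAANNGAAA (10.6%) and the kappaB core GGGANTTTC (1.11%) matched in none of the 4. None of the 5 was found in the window of *C1qb*.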

How the data were processed

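Poly(A) RNA of 32 kidneys had been sequenced with a directional kit. Per the labels and methods, the authors used STAR 2.7.5a for alignment to GRCm39, counted reads per Ensembl gene with HTSeq 0.12.4 by strand and deposited raw counts, with no normalization. The 5 summary lines per library, 16.9% to 26.4% of alignments, were left out here. Groups came from the labels. In R 4.3.3, a gene was kept if its log2 CPM exceeded 1 in 25% of kidneys or more. Counts were scaled by TMM, and all 3 groups were fitted together with edgeR 4.0.16 (quasi-likelihood, no covariates, 2-sided, adjusted by Benjamini-Hochberg over all genes tested). Log2 CPM used a prior count of 2. The SE of a log2 fold change was its absolute value divided by the square root of the test's F statistic. The 95% intervals were normal ones from this SE, so they need not match the p-values exactly. No label says whether a number marks a litter, and p-values measure the spread between mice. No 2 of 496 library pairs were identical.

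The members and all lists were chosen with earlier results of these data known. Named genes are all members, up to 3 called genes per role list with the largest change in PKD against wildtype, those called with salsalate, and fixed marker genes. Alternatives were DESeq2 1.42.0 (size factors, Wald test), upper-quartile factors, limma-voom 3.58.1, other filters, only the groups compared, a replicate block, C4a and C4b summed, wildtype subsets, and each kidney left out. Leaving out PKD replicate 10 with 1 further kidney, or with C4a and C4b summed, was added after the data were seen. Positions and overlaps came from GENCODE mouse release 39, in which 52610 of 53700 gene identifiers were found.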

Additional observations from a re-analysis of the deposited data

Results flagged for a closer look

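Within the 8 wildtype kidneys, 2 values lay far from the rest of their group by Dixon's test, which picks about 1 in 20 groups by chance; 9 members were examined. *C4a* was at 9.52 CPM in wildtype replicate 2, whose library name ends in R, with the next kidney at 4.46 CPM. *Cfb* was at 3.87 CPM in wildtype replicate 7, whose library name does not end in R, with the next at 2.29 CPM. That library had the highest share of alignments on genes of all 32 (83.09%). Next in that share were PKD replicate 2 (82.87%) and PKD + Salsalate replicate 3 (82.70%). They had the highest *Cfb* of their groups, 3.32 and 3.21 CPM, and were named after their values were seen. The part of this share in *Cfb* was not tested. Without wildtype replicate 7 the log2 fold change of *Cfb* in PKD against wildtype was 0.20 (edgeR, adjusted p = 0.490).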

How the results depend on the processing

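*C3*, the 3 C1q genes and *C4b* were called higher in PKD against wildtype under every alternative that gave them a value, and *C4a* was called lower in PKD + Salsalate against PKD under each, except with both C4 genes summed, where 0 members were called with or without PKD replicate 10. *C1ra* lost its call in both comparisons with the R-named wildtype libraries as the reference, and *C4a* was called lower in PKD with these when PKD replicate 10 was left out (-0.72). With 1 kidney left out, between 1 and 3 members were called for salsalate, the 3 without PKD + Salsalate replicate 11 (2 with PKD replicate 10 left out as well). Among other complement genes, 4 were called for salsalate with no filter on low counts (*Hc*, *C9*, *Vtn* and *Cpn1*) and 2 with filterByExpr (*Vtn* and *Cpn1*), and between 0 and 1 with 1 kidney left out; the first 3 were at their highest of 32 kidneys in PKD replicate 10.

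Directions turned for *Cfb*, *C2* and *C1qa*, each in comparisons where they were not called with all kidneys. *Cfb* in PKD against wildtype was 0.0215 with upper-quartile factors, 0.0565 with limma-voom, 5.939e-05 with no filter, 0.42 against the wildtype libraries ending in R (0.40 without PKD replicate 10), and -0.12 to 0.20 with 1 kidney left out (-0.15 to 0.18 with PKD replicate 10 and 1 more left out). In PKD + Salsalate against wildtype it was 0.29 and 0.28 against the libraries ending in R, and -0.288 to 0.0648 (-0.289 to 0.0661) with kidneys left out. *C2*, called higher in both comparisons against wildtype libraries not ending in R, was -0.0153 in PKD and -0.22 in PKD + Salsalate against those ending in R (-0.22 also without PKD replicate 10), and -0.0424 to 0.150 (-0.0418 to 0.149) in the latter with kidneys left out. In PKD + Salsalate against PKD, *C1qa* was -0.120 to 0.00429 with 1 kidney left out (-0.140 to -0.0128 with PKD replicate 10 and 1 more), and *Cfb* -0.280 to -0.0225 (-0.263 to 0.0122). The causes were not tested.

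With the replicate number as a replicate block, *Cfb* in PKD against wildtype was 0.00950, and no call of a member changed. Same-numbered kidneys did not deviate together: r ran from -0.55 to 0.47 over 28 pairs (median -0.05), with 8 above 0.1. Depth limits *C4a* and *Cfb* most, with as few as 18 and 12 counts in a kidney.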

Other observations

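Genes known mainly from liver differed between PKD and wildtype in both directions. Without PKD replicate 10, 11 of the 19 hepatocyte markers were tested in PKD against wildtype, and 4 rose and 5 fell by edgeR's quasi-likelihood test. Over all genes 23.4% were called higher and 24.6% lower in that fit (24.1% and 25.0% with PKD replicate 10). *Fgb* (the fibrinogen beta chain) rose with a log2 fold change of 1.88 ± 0.41 (adjusted p = 0.000343), from 0.734 CPM ± 0.946 in wildtype (n = 8) to 2.41 ± 0.947 in PKD (n = 11). *Alb* fell by 1.28 ± 0.19 on that scale (adjusted p = 1.88e-06), from 6.31 CPM ± 2.29 to 2.59 ± 0.581. With PKD replicate 10 in the fit, 7 of the 11 were called higher and none lower, *Alb* among them at 4.65 ± 1.32 (adjusted p = 0.00420). *Apoa1* was too low to be tested, at 1.66 CPM ± 0.518 in wildtype, 0.734 ± 0.146 in the 11 PKD kidneys and 0.519 ± 0.138 in PKD + Salsalate. Other markers too low to be tested were also higher in wildtype than in the 11 PKD kidneys, among them *Ahsg* (0.221 CPM ± 0.261 against 0.00186 ± 0.00617), *Serpina3k* (0.427 ± 0.416 against 0.0474 ± 0.0568) and *Mug1* (0.112 ± 0.154 against 0.0137 ± 0.0390), named after their values were seen. The source of these transcripts was not tested.

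Tubular injury markers rose in PKD. *Havcr1* (KIM-1) had a mean of 0.887 CPM ± 0.421 in wildtype (n = 8), 55.9 ± 19.8 in the 11 PKD kidneys and 49.9 ± 33.9 in PKD + Salsalate (n = 12), a log2 fold change of 5.93 ± 0.43 between the first pair (edgeR, adjusted p = 1.66e-12). *Lcn2* (lipocalin-2) had 4.65 ± 0.27 (adjusted p = 3.18e-14), also without PKD replicate 10. Between PKD + Salsalate and PKD neither was called, at -0.16 ± 0.25 (adjusted p = 0.919) and -0.27 ± 0.18 (adjusted p = 0.720).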
